A study of Bombyx mori with 4 samples.

Results

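Purines are built on a phosphorylated ribose through a chain of enzymes that ends in inosine monophosphate (IMP), from which the cell makes AMP and GMP. These nucleotides are passed between phosphorylation states by kinases, are reduced to the building blocks of DNA, and are taken apart by deaminases and nucleotidases toward hypoxanthine, xanthine and finally uric acid. In silkworm larvae, uric acid is the main purine waste and is stored as granules in the skin, which makes the skin opaque. Larvae of mutants with little uric acid have translucent skin, and op is such a mutant of the silkworm Bombyx mori.

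The genes described here were GART, ATIC, AMPD2, NT5C2, AK3, NME1, RRM1 and PGM1, which are 8 of the 839 gene symbols that were read from the study's re-annotation list. They were chosen as the purine metabolism genes among the names in the first 1999 of its 12981 lines. The list names array probes by homology with human genes, so each name stands for a silkworm sequence that resembles the human gene, and another member of the same family could carry it. In all, 17 of the 43803 probes on the array carried these names, and they belonged to 9 of the 34631 sequence IDs. The methods describe fewer silkworm sequences than there are IDs, so different IDs can stand for the same sequence. NT5C2 was the name of 2 sequence IDs, and each other symbol was the name of 1. None of the 8 symbols was found in the RefSeq gene table used here, and no sequence or position is given for this reason. Xanthine dehydrogenase, which makes uric acid, was not among the genes and was not analysed here.

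Total RNA came from testis of op mutant larvae and of wild-type larvae of the same strain, o751, on day 3 of the fifth instar. Larvae of both genotypes were fed mulberry leaves at 25 °C, and the op larvae are a model with a limit, because the study's text states that the causative gene has not been identified and that op males are infertile. The op and wild-type RNA was hybridized to 2 arrays for each genotype, all on 1 slide, whereas the methods also give n = 5 for each. How many animals went into an array is not given in the sources used here, and nothing there says that the arrays of a genotype were of different animals, so the p-values measure the spread between these samples, which may be technical. Testis is a bulk tissue of germ cells and sheath, and fewer cells of a type cannot be told apart from less RNA per cell.

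On the op arrays 68.0% and 72.2% of the probes were well above background, against 67.8% to 72.3% on the wild-type arrays. Each level below is a normalized log2 signal, the log2 of the processed spot signal after the 75th percentile of that array was subtracted on the same scale. A level of 0 is therefore a spot as bright as that percentile, which was 503.8 and 639.2 on the op arrays, against 640.4 and 574.6 on the wild-type arrays. A probe's level depends on its own binding, so levels are compared between arrays for the same probe and never between probes. Differences are op minus wild type on this log2 scale. The gap between replicates was wider in op across the array, with a standard deviation (SD) over all tested probes of 0.69 in op and 0.36 in wild type. Germ line markers (AURKC, NANOS3 and PIWIL4, with 5 of 5 probes well above background on every array) had a summed signal, relative to the percentile, of 4.72 to 4.79 in op and 5.67 to 5.88 in wild type. Each such sum takes in all probes of its list, also those not above background. Muscle markers of the sheath (TMOD1, TNNT3 and TPM2) summed to 3.95 to 5.34 in op and 0.725 to 2.18 in wild type. TMOD1 was not above background on every array. Basement membrane markers (4 of 4 symbols above background on every array) summed to 5.20 to 5.54 in op and 4.21 to 4.82 in wild type. Gut enzyme markers summed to 2.01 to 2.11 in op and 2.38 to 2.66 in wild type, with CELA1, CPA4 and CPB1 not above background on every array. Fat and lipoprotein markers summed to 0.290 to 0.413 in op and 0.394 to 0.420 in wild type, with LIPC not above background on every array. The part of these markers in the purine results was not tested, and 0 of the marker probes passed the threshold used below.

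None of the purine genes passed an adjusted p of 0.05 in the limma fit, in which p-values were adjusted over everything tested by the Benjamini-Hochberg method. This held for 0 of 16 tested probes, where 0.316% of 30376 tested probes passed, and for 0 of 9 sequence IDs, where 0.338% of 23944 passed. Most sequence IDs over all had a single tested probe, whereas 7 of the 9 purine sequence IDs averaged 2. Shares over all sequence IDs therefore set unlike units side by side. Shares over probes have a limit of their own, because the 2 probes of a purine sequence may not be separate readings. Before adjustment, 5 of the 16 probes had p under 0.05 against 18.7% of all tested probes, and 3 of the 9 sequence IDs against 18.1% of all. These 3 were the second NT5C2 sequence (Ka02372), AK3 and RRM1, and all 5 probes belonged to them. Of the 9 sequence IDs, 5 were higher and 4 were lower in op, with a median difference of 0.31 against 0.040 over all sequence IDs. The median size of the difference without its sign was 0.47, against 0.26 over all. The op arrays lay apart from the wild-type arrays for 7 of the 9 sequence IDs, against 53.3% of all, and for 12 of the 16 probes, against 53.7% of all. With 2 arrays in each genotype, the smallest p that an exact permutation test allows is 0.333.

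**Figure D1:**
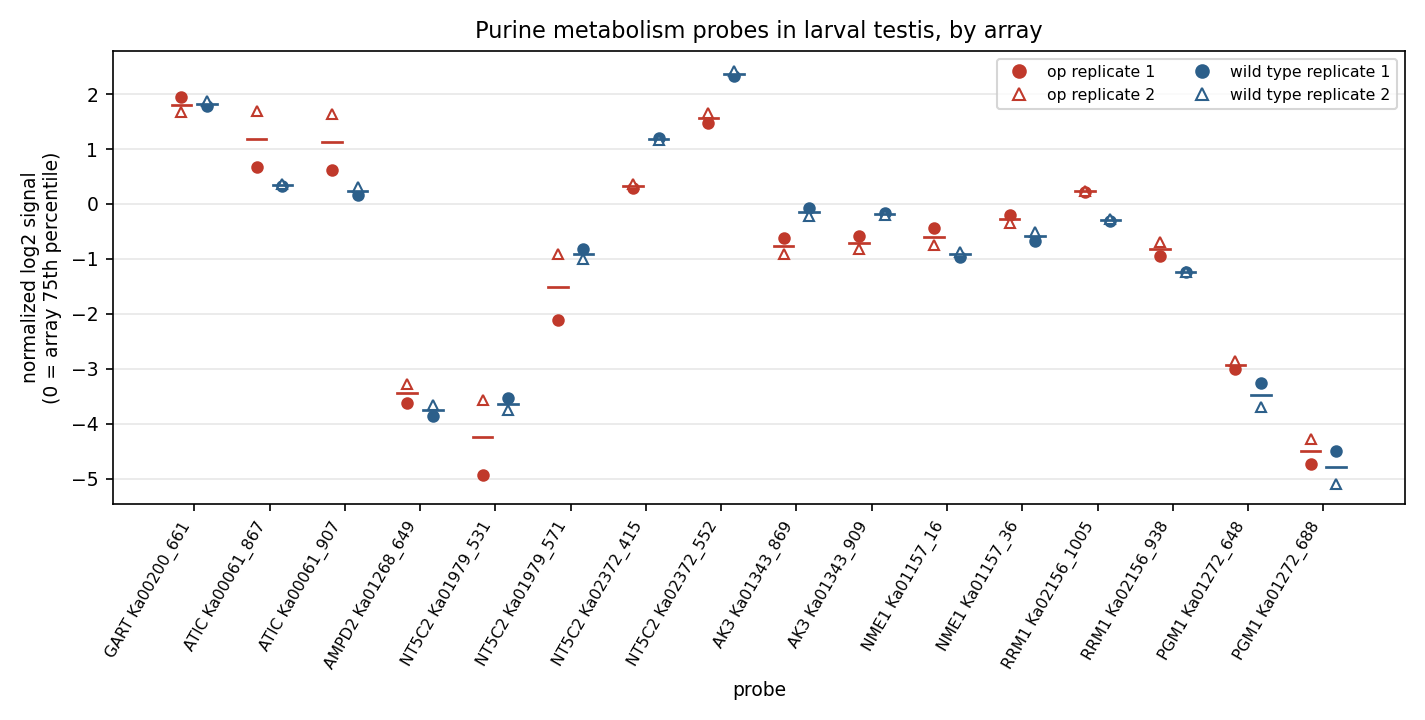
Normalized log2 signal (vertical axis, 0 is the 75th percentile of the array) of the 16 tested purine probes (horizontal axis), with op left of wild type for each probe. Points are arrays (replicate 1 filled circle, replicate 2 open triangle) and short lines are means of 2 arrays; op points lie apart from wild-type points for 12 probes, and points are to be compared within a probe only.

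**Figure D2:**
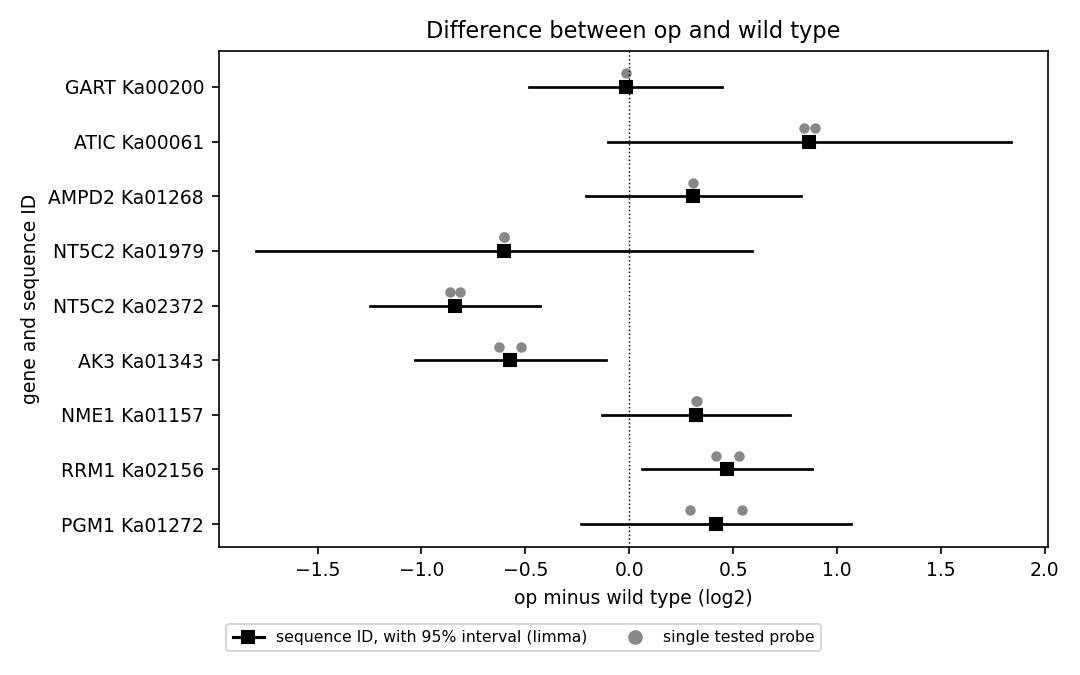
Difference between op and wild type in log2 units (horizontal axis) for the 9 sequence IDs, with the 95% interval from limma (squares and lines) and the single tested probes (grey points). The intervals of NT5C2 Ka02372, AK3 and RRM1 lie to a single side of 0, and the interval of NT5C2 Ka01979 is the widest, from -1.79 to 0.59.

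The synthesis of IMP was covered by GART and ATIC. GART, which carries several early steps of the chain, had levels of 1.94 and 1.67 in op against 1.77 and 1.87 in wild type on probe Ka00200_661. The arrays of the genotypes overlapped. The difference was -0.017 (standard error 0.18 for the sequence, limma adjusted p = 0.967), and the op level was 0.717 to 1.36 times the wild-type level by the 95% interval. Its sign turned under some alternatives, to 0.019 with normexp background correction and to 0.12 without op replicate 2. The other GART probe, Ka00200_77, was not well above background on any of the 4 arrays, with processed signals from 2.62 to 9.13 in op and from 6.54 to 7.0 in wild type, and was not tested.

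ATIC, which carries the last steps to IMP, had the largest positive difference among the 9 sequence IDs and an uneven pair of op arrays. Its probe Ka00061_867 had levels of 0.68 and 1.69 in op against 0.33 and 0.36 in wild type. Its probe Ka00061_907 had 0.62 and 1.65 in op against 0.17 and 0.31 in wild type. On both probes the op arrays were above the wild-type arrays, with op replicate 2 far above op replicate 1. Averaged over its probes, ATIC was 1.16 ± 0.72 in op and 0.29 ± 0.062 in wild type (SD, n = 2 each), and op minus wild type came to 0.87 with a standard error of 0.37 (limma adjusted p = 0.311). The ratio of op to wild type was 1.82, with a 95% interval of 0.932 to 3.57. The size of the difference rested on op replicate 2. Without it the difference was 0.36 (limma adjusted p = 0.181), and without op replicate 1 it was 1.38 (limma adjusted p = 0.0188). Over all 14 alternatives the adjusted p ran from 0.0188 to 0.862. In the fit without op replicate 1, which takes its spread from the wild-type arrays alone, 9.44% of all sequence IDs passed. The IDs of the ATIC probes lie 40 apart and the probes are 60 bases long. If these numbers give the start of a probe within its sequence, which was not tested, the probes overlap and are not separate readings.

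AMPD2, the deaminase that turns AMP back into IMP, had levels of -3.61 and -3.29 in op against -3.86 and -3.65 in wild type on probe Ka01268_649. Both op arrays were above both wild-type arrays, though op replicate 1 and wild type replicate 2 were close. The difference was 0.31 (standard error 0.20, limma adjusted p = 0.464), and the ratio lay between 0.865 and 1.78. The size varied with the arrays and the background correction, at 0.47 without op replicate 1, 0.14 without op replicate 2, 0.20 without wild type replicate 1 and 0.11 with normexp. Processed signals on this probe were low, from 41.1 to 65.6 in op and from 44 to 45.6 in wild type. A further probe of the same sequence that the list does not name, Ka01268_123, was well above background on none of the arrays.

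NT5C2 is a cytosolic nucleotidase that removes the phosphate from IMP and GMP and so feeds purines toward breakdown. Its name stood on a pair of sequence IDs, and both were lower in op on average, with different array patterns. On the sequence Ka02372, probe Ka02372_415 had levels of 0.29 and 0.36 in op against 1.20 and 1.17 in wild type. Probe Ka02372_552 had 1.47 and 1.65 in op against 2.34 and 2.41 in wild type. Both op arrays were well below both wild-type arrays on each probe, and the replicates of each genotype lay close together. For the sequence, op had 0.94 ± 0.091 and wild type 1.78 ± 0.018 (SD, n = 2 each), a difference of -0.84 (standard error 0.16, 95% interval -1.25 to -0.43, limma adjusted p = 0.115). The op level was 0.559 times that of wild type, with an interval of 0.421 to 0.742. This was the largest negative difference among the 9 sequence IDs and had the lowest p among them. The call depended on which arrays were used, because it passed without op replicate 1 (-0.77, limma adjusted p = 0.0495) and without op replicate 2 (-0.90, limma adjusted p = 0.0380), each in a fit that takes the spread from the wild-type arrays, and its adjusted p was 0.0380 to 0.711 over all 14 alternatives. Probe Ka02372_415 also passed with normexp background correction (limma adjusted p = 0.0491, from 0.0448 to 0.669 over the alternatives), where 1.36% of all probes passed.

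On the sequence Ka01979, the op arrays differed from each other instead. Probe Ka01979_531 had levels of -4.93 and -3.56 in op against -3.53 and -3.76 in wild type. Probe Ka01979_571 had -2.12 and -0.92 in op against -0.83 and -1.0 in wild type. On both probes op replicate 1 was below both wild-type arrays and op replicate 2 was among them. The sequence averaged -2.88 ± 0.91 in op and -2.28 ± 0.14 in wild type (SD, n = 2 each), so that op minus wild type was -0.60 with a standard error of 0.45 (limma adjusted p = 0.532). It was -1.24 without op replicate 2 (limma adjusted p = 0.0274), where 9.99% of all sequence IDs passed, and 0.040 without op replicate 1. With normexp it was -0.27. The adjusted p ranged between 0.0274 and 0.990 over the alternatives. These IDs also lie 40 apart, and processed signal on Ka01979_531 was 16.5 in op replicate 1, the lowest of any purine probe tested.

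The difference between the NT5C2 sequences was compared within each array, as the mean level of Ka02372 minus that of Ka01979, to ask whether they moved unequally. It was 4.40 and 3.25 in op against 3.95 and 4.17 in wild type, and the wild-type values lay between the op values. The difference of op from wild type was -0.24, it became 0.34 without op replicate 2 and -0.81 without op replicate 1, and no exact permutation test of these arrays could pass the threshold. Whether the sequences moved unequally therefore cannot be said from them.

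**Figure D3:**
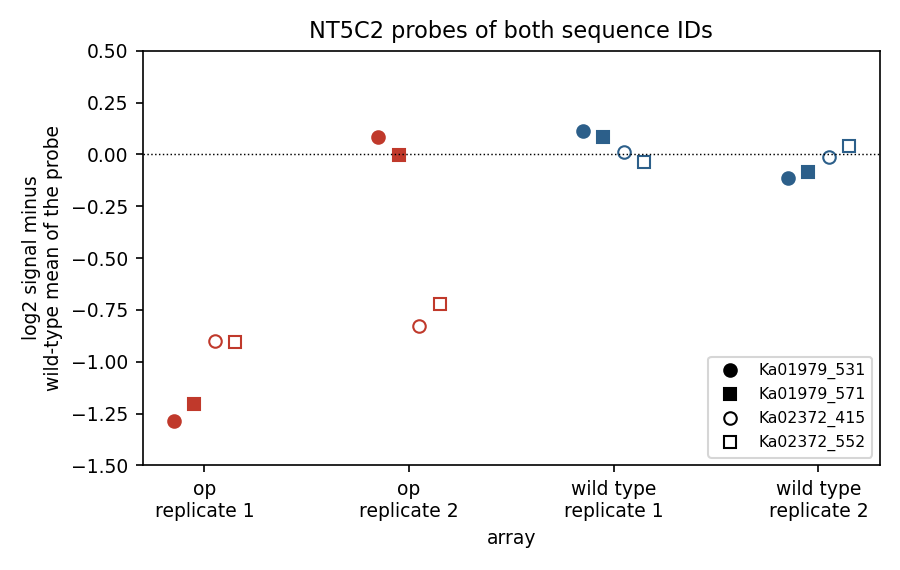
Normalized log2 signal of the 4 NT5C2 probes minus the wild-type mean of each probe (vertical axis) on the 2 op arrays and the 2 wild-type arrays (horizontal axis). The probes of Ka02372 (open symbols) are low on both op arrays, whereas those of Ka01979 (filled symbols) are low on op replicate 1 and lie near the wild-type mean on op replicate 2.

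AK3 and NME1 phosphorylate nucleotides. AK3, an adenylate kinase of mitochondria that uses GTP to phosphorylate AMP, had levels of -0.62 and -0.92 in op against -0.08 and -0.21 in wild type on probe Ka01343_869. On probe Ka01343_909 it had -0.59 and -0.82 in op against -0.16 and -0.21 in wild type. All op values were below all wild-type values. The sequence was -0.74 ± 0.18 in op and -0.16 ± 0.065 in wild type (SD, n = 2 each), which differ by -0.57 with a standard error of 0.17 (limma adjusted p = 0.214). The op level was 0.672 times that of wild type, with an interval of 0.489 to 0.925, and the difference stayed between -0.70 and -0.44 over 14 alternatives.

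NME1, a nucleoside diphosphate kinase that makes nucleoside triphosphates, had levels of -0.44 and -0.75 in op against -0.96 and -0.88 in wild type on probe Ka01157_16. On probe Ka01157_36 it had -0.20 and -0.34 in op against -0.68 and -0.50 in wild type. Here the op arrays were above the wild-type arrays. The difference for the sequence was 0.32 (standard error 0.17, limma adjusted p = 0.394), and the ratio of 1.25 had an interval of 0.913 to 1.71. Without op replicate 1 the difference was 0.21. The IDs of the NME1 probes lie 20 apart.

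RRM1, the large subunit of ribonucleotide reductase, makes deoxyribonucleotides for DNA. Its probe Ka02156_1005 had levels of 0.22 and 0.24 in op against -0.31 and -0.28 in wild type. Its probe Ka02156_938 had -0.94 and -0.70 in op against -1.24 and -1.24 in wild type. Op was above wild type on every array pair, and on Ka02156_1005 the replicates were nearly equal. The sequence averaged -0.29 ± 0.093 in op and -0.77 ± 0.011 in wild type (SD, n = 2 each). The difference of 0.47 had a standard error of 0.16 (limma adjusted p = 0.234), and the ratio of 1.39 had an interval of 1.04 to 1.84. By probe, the interval of the ratio was 1.10 to 1.89 on Ka02156_1005 and 0.982 to 1.82, which includes no change, on Ka02156_938. Over the 14 alternatives the difference for the sequence lay between 0.38 and 0.54. The IDs of its probes lie 67 apart, more than the length of a probe.

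PGM1, a phosphoglucomutase that interconverts sugar phosphates, stands at the sugar end of the pathway. On probe Ka01272_648 its levels were -3.01 and -2.87 in op against -3.26 and -3.70 in wild type, and the arrays did not overlap. On probe Ka01272_688 they were -4.73 and -4.28 in op against -4.50 and -5.09 in wild type, and the arrays overlapped. The probes differed in size, with differences of 0.54 and 0.29, and for the sequence the difference was 0.42 (standard error 0.25, limma adjusted p = 0.434). It was 0.68 without wild type replicate 1, 0.16 without wild type replicate 2, 0.27 without op replicate 2 and 0.25 with normexp. Both were dim, with processed signals of 16.8 to 87.6.

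Every sequence ID with 2 tested probes had both probes on the same side of 0, which was 7 of 7, and the differences of a pair were 0.0014 to 0.25 apart. For 5 of these pairs the IDs lie under 60 apart, so the pairs may not be separate readings. The estimated error of a spot, as the scanner software gives it, was at most 16.2% of its signal for the tested probes. ATIC and Ka01979, which had the widest intervals, had gaps between op replicates of 1.02 and 1.28 for the sequences, seen on both probes of each. Gaps above 1 occurred for 4 of the 16 purine probes in op (25.0%), against 7.35% of all tested probes. These 4 were the probes of ATIC and Ka01979, so they stand for 2 of the 9 sequence IDs (22.2%), against 7.16% of all. In wild type such gaps occurred for 0 of the 16, where 560 of all 30376 tested probes had them. The gap was wider in op than in wild type for 8 of the 9 sequence IDs, against 72.4% of all. The gaps of ATIC and Ka01979 had the same sign, with op replicate 2 higher, although ATIC was above wild type on both op arrays and Ka01979 below or level with it. The remaining 7 sequence IDs had op gaps between -0.27 and 0.33.

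**Figure D4:**
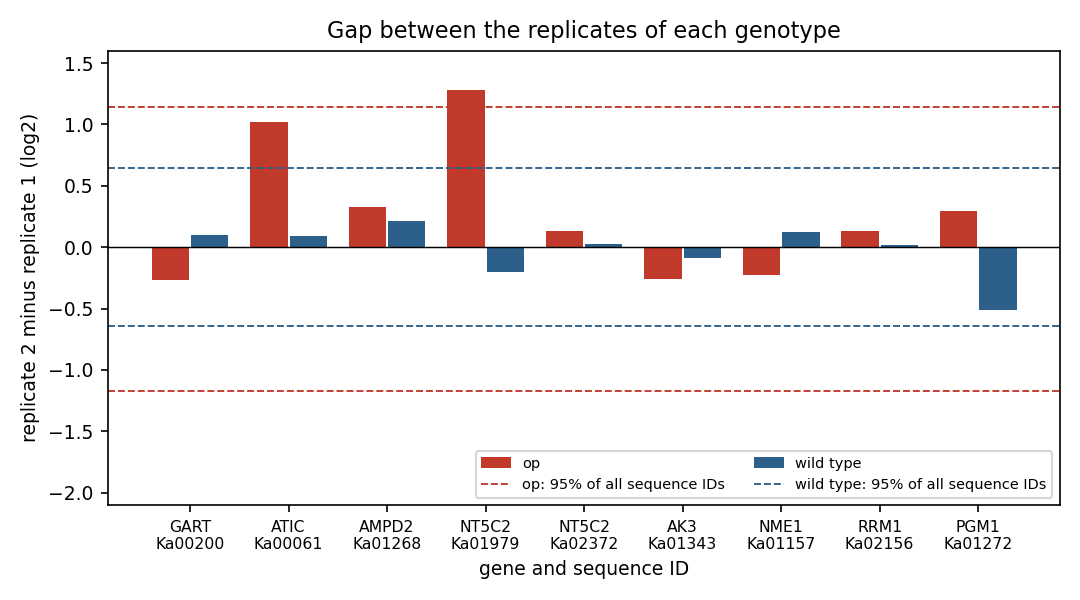
Gap between replicates (replicate 2 minus replicate 1, log2, vertical axis) of op and wild type for the 9 sequence IDs (horizontal axis). Dashed lines enclose 95% of all tested sequence IDs of each genotype, from -1.17 to 1.14 in op and from -0.64 to 0.65 in wild type; only Ka01979, at 1.28 in op, lies outside its lines.

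Neighbouring pathways were read from lists of genes in the same annotation, and 0 of 33 tested probes passed the adjusted threshold. At an unadjusted p under 0.05 there were 11 of the 33, against 18.7% of all tested probes. Among pyrimidine and thymidylate genes (CAD, DPYD, DTYMK, TYMS and UPB1), 8 of 10 tested probes were higher in op, with a median difference of 0.79. CAD, which starts pyrimidine synthesis, had no tested probe. Of these, 6 had p under 0.05 and were higher, against 10.6% of all tested probes that were higher and 8.04% that were lower at that p. The 6 were all probes of UPB1 and DPYD, which break down pyrimidine bases, and belong to 3 sequence IDs. DPYD is named here after its values were seen. Probe Ka00736_714 of UPB1 had the largest difference, 1.68 (limma adjusted p = 0.110), which was 2.04 without op replicate 1 and 1.31 without op replicate 2. The lowest was -0.052 for DTYMK, a thymidylate kinase (limma adjusted p = 0.875), which was 0.015 without op replicate 1 and -0.12 without op replicate 2. Folate and one-carbon genes, which supply carbons for the purine ring, had 5 of 9 tested probes higher and a median of 0.24, and 2 of the 9 were higher at an unadjusted p under 0.05. They ran from -0.89 for ALDH1L2 (limma adjusted p = 0.493) to 0.71 for GLDC, a subunit of the glycine cleavage system (limma adjusted p = 0.467). Both of these rested on op replicate 2, without which they were 0.0088 for ALDH1L2 and 0.052 for GLDC, and without op replicate 1 they were -1.78 and 1.36. Polymerase genes, which use nucleotides, had 4 of 8 probes higher, 0 of 8 at an unadjusted p under 0.05 in either direction and a median of 0.042, from -0.18 for POLD2 (limma adjusted p = 0.712) to 0.48 for POLE (limma adjusted p = 0.421). Without op replicate 1 these were 0.096 and 0.13, and without op replicate 2 they were -0.45 and 0.82. The POLE probe, Ka00348_234, was dim, with levels of -4.43 and -5.13 in op against -5.27 and -5.23 in wild type. With normexp its difference was 0.21. The list called sugar phosphate and phosphate supply (PKM, TKT and NUDT18) had 4 of 6 probes higher and a median of 0.48. At an unadjusted p under 0.05, 2 were higher and 1 was lower. The lower probe was of NUDT18, which the name of the list may not describe. The list ran from -0.40 for NUDT18 (limma adjusted p = 0.262) to 1.11 for TKT, a transketolase (limma adjusted p = 0.248). The TKT value was 0.59 without op replicate 1 and 1.63 without op replicate 2. The median over all tested probes was 0.031.

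The named sequences whose pattern over the 4 arrays was most like each purine sequence were ranked by Euclidean distance of levels centered on their mean, among 945 named sequence IDs. For Ka02372 the closest were PSME3, MBTD1 and MAP2K1, at 0.105, 0.136 and 0.152. For Ka01979 they were FAM20C, CEBPG and HPGD, at 0.125, 0.188 and 0.298. For ATIC they were RPL37A, HMCN1 and CTH, at 0.178, 0.197 and 0.236. For the remaining sequences, the closest were MEP1B for GART (0.0134), DARS for AMPD2 (0.0693), LRRC57 for AK3 (0.0776), ATP5A1 for NME1 (0.0420), RPL30 for RRM1 (0.0664) and RAC1 for PGM1 (0.177). Distances were not scaled by how much a sequence varied, so sequences that varied little, such as GART, can have small ones. They are therefore not to be compared between purine sequences. Distances over 4 arrays of 1 slide describe these arrays only.

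**Figure D5:**
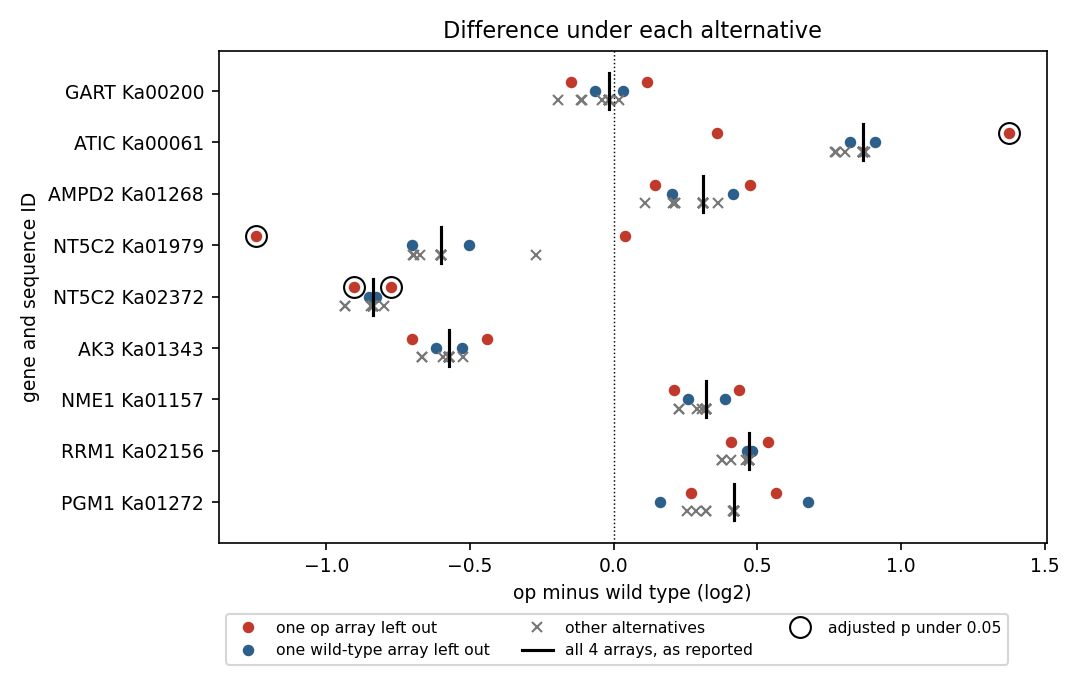
Difference between op and wild type (log2, horizontal axis) for the 9 sequence IDs under each of 14 alternatives, with the value from all 4 arrays as a vertical line and circles around values with an adjusted p under 0.05. Leaving out an op array moved ATIC and NT5C2 Ka01979 most, and the circled values are those of ATIC and both NT5C2 sequences without an op array.

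Across probes, the counts behind the plot of alternatives were 3 of 16 past the adjusted threshold without op replicate 1 (7.94% of all probes) and 4 of 16 without op replicate 2 (7.79% of all). The 3 were both ATIC probes and Ka02372_415, and the 4 were the NT5C2 probes.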

How the data were processed

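The authors labelled testis RNA with Cy3, hybridized it to 60-mer arrays and read the spots with Feature Extraction 9.5. The deposited scanner values give each spot an intensity from which background had been subtracted, and mark spots that are dim, saturated or outliers. Normalized values that the authors deposited on the log2 scale served as an alternative, and the levels and ratios of the re-annotation list were not used. Here, log2 of the processed intensity minus the 75th percentile of each array was fitted in limma 3.58.1 (R 4.3.3) by lmFit and eBayes. Tests were two-sided and p-values were adjusted by Benjamini-Hochberg over all 30376 tested probes, or over 23944 sequence IDs after averaging their probes. A probe was tested if both arrays of op or both of wild type were well above background. Control and outlier spots were left out. The number of arrays limits the precision. All purine probes are named, and of the context genes, values are given for those that passed the threshold or were the lowest or highest of their list. The genes and lists were chosen with earlier results of these data known. Alternatives were background correction (normexp on the median spot signal with an offset of 50, where the mean had been planned), scaling, the deposited values, other filters, a replicate block, a trend and robust fit, leaving out each array and the methods' t-test. The fit was tested on simulated data with the same spread in both genotypes and planted differences larger than any purine difference. That test therefore does not show how the fit handles differences of the sizes reported for the purine genes.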

Additional observations from a re-analysis of the deposited data

How the results depend on the processing

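Purine probes past the adjusted threshold numbered 0, with 1 under normexp background correction and 0 to 4 when an array was left out. Purine sequence IDs numbered 0, with 0 to 2 when an array was left out. With a replicate block both counts were 0. Replicate numbers mark no shared animal, and same-numbered deviations had a correlation of -0.030. With the methods' t-test, 4 probes and 2 sequence IDs had p under 0.05 before adjustment and 0 after it. Context probes numbered 0, with 1 under normexp (UPB1) and 0 to 7 when an array was left out. The NT5C2 sequence difference of -0.24 was -0.53 under normexp and lay between -0.81 and 0.34 when an array was left out, with 0.34 for op replicate 2. Leave-out settings for that difference and for the context genes were added after seeing the data. The sign turned for GART, which was 0.019 under normexp and lay between -0.15 and 0.12 over the leave-outs. It also turned for NT5C2 Ka01979 (-1.24 to 0.040), its probe Ka01979_531 (-1.29 to 0.082) and PGM1 probe Ka01272_688 (-0.0056 to 0.59). Of 126 alternative values for sequence IDs, 118 kept their direction and side of the threshold, and of 224 for probes, 211 did. These counts overstate the agreement, because some alternatives could not turn a sign. The filter on all arrays, the trend and robust fit, the replicate block and the t-test left every purine difference unchanged. The deposited values left them nearly unchanged. The cause of the changes that did occur was not tested. A fit without an op array assumes that the remaining one varies like wild type. AMPD2, PGM1 and Ka01979_531 were dim, which limits what could be detected there.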
